A study of Drosophila melanogaster with 90 samples.

Results

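This report concerns Drosophila pupae that completed metamorphosis at 12g in the large diameter centrifuge (LDC), in open containers and at constant temperature, compared with static 1g pupae kept in the same environment. The comparison uses 5 of the 90 arrays of the series, chosen by the labels for facility, gravity level, temperature and oxygen: 2 arrays at 12g and 3 at 1g. All of these animals were Oregon R, a standard wild-type strain, and were collected as late pupae just before eclosion, without a cold step, oxygen limitation or magnetic field. The labels give 24°C and 3.5 days for the exposure, while the study's methods give a slightly lower temperature and a longer time. Each array holds RNA from a pool of whole pupae, so a lower value cannot be told apart as fewer cells of a tissue or less RNA per cell. Beside them stand 3 arrays of a rotational control (1g-rot), which turned on the axis of the same centrifuge without hypergravity, and 2 arrays at 6g.

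Hypergravity adds weight to an animal that is rebuilding its body. During metamorphosis the fly pupa dissolves most larval tissues and assembles the adult muscles, nervous system, gonads and cuticle under the control of the steroid hormone ecdysone, and late pupae are tanning the adult cuticle and preparing to eclose. Flies sense gravity with stretch-sensitive neurons of the antenna and of joint organs.

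A technical division runs through these arrays. The study's sample table, but not the labels, marks a parallel second experiment. Both 12g arrays belong to the first experiment. The 1g group has 1 array of the first (replicate 1) and 2 of the second (replicates 2 and 3), the rotational control is split in the same way, and both 6g arrays are of the second. Correlations over all probe sets run from 0.975 to 0.994 in 15 pairs within the second experiment, from 0.953 to 0.983 in 6 pairs within the first, and from 0.934 to 0.971 in 24 pairs across them. The 12g replicates correlate at 0.968 with each other, while 12g replicate 1 correlates at 0.983 with 1g replicate 1, so 12g replicate 2 stands apart. Values below are log2 intensities, arrays are listed in the order of their replicate numbers, and results that turn on the experiment or on 1 array are given with and without it.

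Few genes separated 12g from static 1g pupae. Of 18769 probe sets, 28 were called (0.149%) by limma at an adjusted p under 0.05 (Benjamini-Hochberg over all probe sets), with 19 higher (0.101%) and 9 lower (0.048%). With these 28 included, 2843 had an unadjusted p under 0.05. Of the 28, 26 carry a single gene symbol, 1 matches several genes and 1 has no symbol. Differences ran from 3.55 for CG34227 to -2.61 for CG13048, and the smallest called rise was 0.57. In all 28 the 12g arrays lay outside the range of the 1g arrays, as did 15.7% of all probe sets on the high side and 7.09% on the low side. The called genes included the insecticide-resistance enzyme Cyp6g1, arginase, an adenosine deaminase growth factor, a serpin, the Toll pathway protease grass and, among the fallers, the adhesion protein Nrt and 2 serine protease genes.

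**Figure D1:**
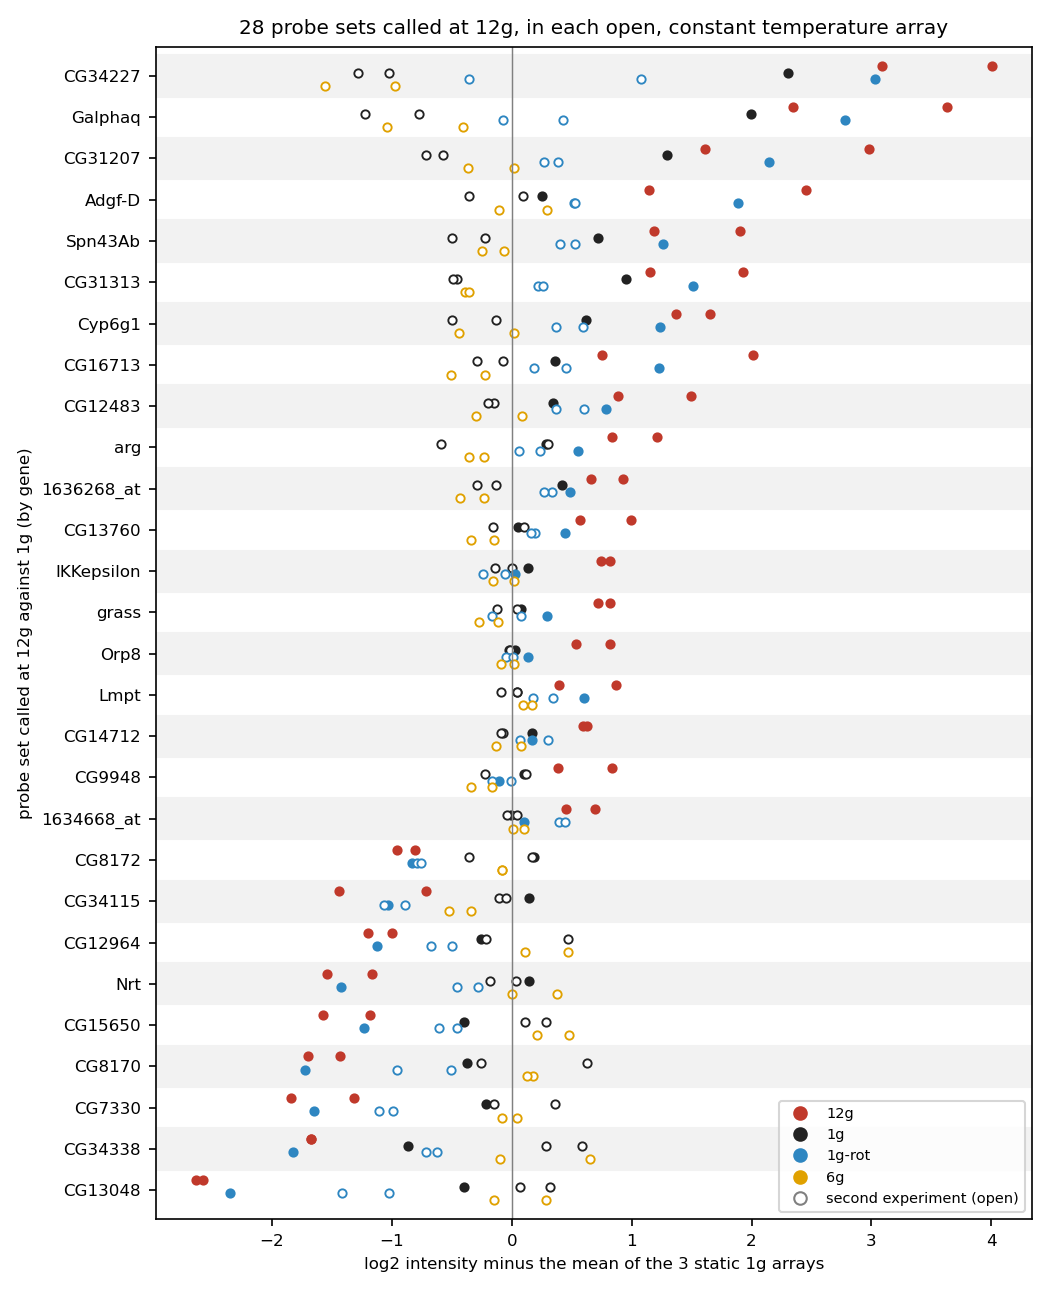
Log2 intensity of the 28 called probe sets minus the mean of the 3 static 1g arrays, 1 point per array in the 10 open, constant temperature arrays, with filled points for the first experiment and open points for the second. The 12g points lie outside the 1g points in every row, and 1g-rot replicate 1 lies close to them in many rows, for example at 11.04 for CG34227 against 11.10 and 12.02 at 12g.

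The gene with the smallest p was CG7330, which carries only a systematic name. It read 8.14 and 7.62 at 12g against 9.24, 9.82 and 9.31 at 1g. Both 12g arrays were lower than all 1g arrays, including the one from the same experiment, and the difference was -1.58 (standard error 0.21, adjusted p = 0.00105 in limma), a 2.98-fold fall. CG13048, another gene known only by its systematic name, had the widest fall, 6.09-fold. It read 7.08 and 7.14 at 12g against 9.32, 9.79 and 10.04 at 1g (adjusted p = 0.014). CG13048 was also the only one of the 9 fallers whose 12g arrays lay below all 8 other open arrays at constant temperature. Of the 1330 probe sets below every 1g array, 498 held that position (2.65% of all probe sets).

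CG8172 and CG8170 lie 3 genes apart and are listed by RefSeq under serine protease (SP) synonyms. CG8172 read 5.28 and 5.13 at 12g against 6.27, 6.25 and 5.73 at 1g (difference -0.88, adjusted p = 0.0095 in limma). CG8170 read 6.25 and 5.98 against 7.31, 8.31 and 7.42 (difference -1.57, adjusted p = 0.014 in limma). In both genes the groups were apart, by less in CG8172 than in CG8170. CG15650 and CG34115 are a second pair of fallers, 2 genes apart, with differences of -1.38 and -1.08 (adjusted p = 0.014 and 0.0169 in limma). Nrt, neurotactin, a membrane protein of cell adhesion in the developing nervous system, read 5.74 and 5.36 at 12g against 7.05, 6.72 and 6.94 at 1g. Its 1g arrays of both experiments lay together, well above 12g (difference -1.35, adjusted p = 0.0416 in limma). CG12964 (-1.10) and CG34338 (-1.68) complete the fallers. CG34338 was low in its first-experiment 1g array as well, at 6.77 against 8.22 and 7.92 in the others, and a second probe set of the gene stood at 0.10 (adjusted p = 0.768 in limma).

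Among the genes that rose, 3 encode enzymes of detoxification or nitrogen metabolism. Cyp6g1, the cytochrome P450 known for resistance to DDT and other insecticides, read 10.26 and 10.54 at 12g against 9.51, 8.39 and 8.76 at 1g. Its 12g arrays were above all 8 other open arrays at constant temperature, though 1g-rot replicate 1 came near at 10.12, and the difference was 1.51 (standard error 0.25, adjusted p = 0.0095 in limma). Adgf-D belongs to the secreted adenosine deaminase growth factors, a family that removes extracellular adenosine. It read 8.28 and 9.59 at 12g against 7.39, 6.78 and 7.23 at 1g, a 3.49-fold rise (adjusted p = 0.0156 in limma). The 12g replicates differed from each other by more than the 1g replicates did, and 1g-rot replicate 1, at 9.02, fell between them. The arginase gene arg, whose product splits arginine into urea and ornithine, read 9.48 and 9.85 against 8.93, 8.05 and 8.94 (difference 1.02, adjusted p = 0.0443 in limma).

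Among the other risers, grass encodes a clip-domain protease that acts upstream of the Toll receptor when microbes are sensed. It read 9.74 and 9.64 at 12g against 9.0, 8.80 and 8.97 at 1g, and the replicates of each group lay close together (difference 0.77, standard error 0.14, adjusted p = 0.0167 in limma). IKKepsilon, a kinase of the IKK family that in flies acts on the cytoskeleton and on caspase inhibitors, read 6.40 and 6.47 against 5.79, 5.51 and 5.66. No other constant temperature array reached 12g in this gene, where the highest was 5.79 (difference 0.78, adjusted p = 0.0443 in limma). Spn43Ab, a secreted serine protease inhibitor of the serpin family, read 11.49 and 12.20 against 11.02, 9.80 and 10.08 (difference 1.55, adjusted p = 0.0102 in limma). CG16713, a short gene of the Kunitz protease inhibitor type, read 10.56 and 11.82 against 10.17, 9.52 and 9.74 (difference 1.38, adjusted p = 0.0443 in limma). In both inhibitors 12g replicate 2 was the higher, and the first-experiment 1g array was the highest of its group.

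In 2 further risers the static controls themselves split by experiment. CG34227 read 11.10 and 12.02 at 12g, 10.32 in 1g replicate 1 and 6.73 and 6.99 in 1g replicates 2 and 3. Galphaq, the G protein subunit of phototransduction, read 9.11 and 10.39 at 12g and 8.76, 5.99 and 5.54 at 1g. In both, most of the difference of 3.55 and 2.99 separates the experiments, and against the first-experiment 1g array alone the differences were 1.24 and 0.99 (adjusted p = 0.246 and 0.355 in limma, with 1 control array). The other probe sets of Galphaq stood at -0.85 and -1.36, and read high in the 1g arrays in which the called one read low. CG31207 (2.30) and CG31313 (1.54) showed the same split at 1g, with first-experiment values of 8.14 and 11.73 and second-experiment values of 6.27 and 6.13, and 10.32 and 10.29.

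The remaining risers changed by less. Orp8, a member of the oxysterol-binding protein family, read 5.97 and 6.25 at 12g against 5.46, 5.41 and 5.42 at 1g (difference 0.68, adjusted p = 0.049 in limma), while its brighter probe set stood at 0.04. Lmpt, limpet, a LIM-domain protein of muscle, rose by 0.63 in one probe set (adjusted p = 0.0443 in limma), and its other probe sets stood at 0.46 and -0.35. CG12483 (1.19), CG13760 (0.78), CG14712 (0.61) and CG9948 (0.61) carry only systematic names. For CG9948 and CG14712 the 12g arrays were above all 8 other open arrays at constant temperature, as in 12 of the 19 risers. These 8 include the 1g arrays that chose the risers. Of the 2941 probe sets above every 1g array, 1727 were above all 8 (9.2% of all probe sets). The called probe set that matches both CG42502 and CG10570 rose by 0.79, and the one with no symbol by 0.57.

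The experiment division changed the size of these differences. The kept signs below are a description, since these same arrays chose the 28. When the second experiment entered the fit as a term, all 28 kept their direction, and the medians moved from 1.02 to 0.89 for the risers and from -1.38 to -1.19 for the fallers. Under that term 6 probe sets were called (0.032%), 3 higher and 3 lower, with 2491 at an unadjusted p under 0.05. The 3 lower were CG7330 (-1.47, adjusted p = 0.0042), CG8172 (-1.02, adjusted p = 0.00115) and CG34115 (-1.27, adjusted p = 0.0042), all from the 28. The 3 higher were Gbs-70E (1.28), which encodes a glycogen-targeting subunit of protein phosphatase, CG1575 (0.73) and CG6901 (0.78), which were chosen after their values were seen. Gbs-70E read 10.27 and 10.24 at 12g, 9.0 in 1g replicate 1 and 10.06 and 10.04 in the others. Its 12g arrays thus lay far above the first-experiment control and only slightly above the others. Against 1g replicate 1 alone the medians were 0.73 and -1.20. The side was fixed there, because both 12g arrays lay outside the 1g range in all 28.

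Single arrays decided how many probe sets passed. Without 12g replicate 2 no probe set was called (1790 at an unadjusted p under 0.05), and without 12g replicate 1 the count was 327. Without 1g replicates 1, 2 and 3 in turn the count was 682, 1 and 11. The 28 were all among the 327 and the 682, and CG7330 and CG8172 passed in 12 of 15 alternatives each. A fit with only these 5 arrays called none (1172 at an unadjusted p under 0.05).

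In the fallers the rotational control lay mostly nearer to 12g than to 1g, and in most risers nearer to 1g. The comparisons of 12g with 1g and of 1g-rot with 1g share the 1g arrays, so their values are set side by side without a test. For the 9 fallers the median difference was -1.38 at 12g and -0.997 in the rotational control, and for the 19 risers it was 1.02 and 0.38. All 19 risers lay higher at 12g than in the rotational control on average (61.1% of all probe sets did). All 9 fallers lay lower (38.9% did). Called against the rotational control were 8 risers and 0 fallers, where 3.07% of all probe sets were called higher and 4.62% lower. The same 12g arrays chose the risers and fallers and enter this comparison, so the shared sign is partly built in. All probe sets were not chosen in that way, so these shares and calls are a description. CG7330, CG8172 and CG34115 were the 3 probe sets called in 1g-rot against 1g (0.016%; 1193 at an unadjusted p under 0.05), all lower, at -1.25, -0.79 and -0.997 (adjusted p = 0.0093, 0.0113 and 0.0346 in limma). CG34115, for example, read 6.81, 6.95 and 6.78 in the rotational control, inside the 12g range of 7.13 and 6.40. CG8172 read 5.25, 5.29 and 5.33 there, again level with 12g. By contrast grass, IKKepsilon, CG9948 and Orp8 lay in the rotational control at 0.07, -0.09, -0.09 and 0.03 from 1g, and at 12g they were 0.70, 0.87, 0.70 and 0.65 above the rotational control (adjusted p = 0.028 each in limma). With the experiment term, or without 1g-rot replicate 2 or 3, 0 probe sets were called against the rotational control. 1g-rot replicate 1, of the first experiment, lay nearer to 12g than its fellow replicates in many genes. CG13048 read 7.37, 8.69 and 8.30 in the rotational control, and Nrt read 5.48, 6.62 and 6.45.

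Several called genes had neighbours on the chromosome with differences of the same sign. Gene order was taken from RefSeq, up to 3 protein-coding genes on each side, and the neighbours named here were chosen after their values were seen. Beside CG13048, CG13049 stood at -2.02 and CG13047 at -1.34, both with their 12g arrays below every 1g array. Beside Spn43Ab lie its relative Spn43Ad (1.76) and nec (0.72), necrotic, the serpin that restrains Toll signalling. Adgf-C, next to Adgf-D, stood at 1.23, IM33, next to CG16713, at 1.63, and CG7079, next to CG31207, at 1.79. CG13747, between CG8172 and CG8170, stood at -1.17, and CG13699, next to CG7330, at -1.15. None of these neighbours was called (lowest adjusted p = 0.075 in limma, for Spn43Ad). Over all measured neighbours up to 3 genes away, 10 of 45 beside the fallers lay below every 1g array (22.2%) and 2 above, and 16 of 86 beside the risers lay above (18.6%) and 8 below. Of 17 measured genes directly beside a faller, 8 lay below every 1g array (47.1%) and 0 above, where 8.88% of all genes lay below. CG9344, which lies between CG34115 and CG15650, is counted for both of them. Of 30 directly beside a riser, 6 lay above every 1g array (20.0%) and 2 below, against 13.9% of all genes above.

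**Figure D2:**
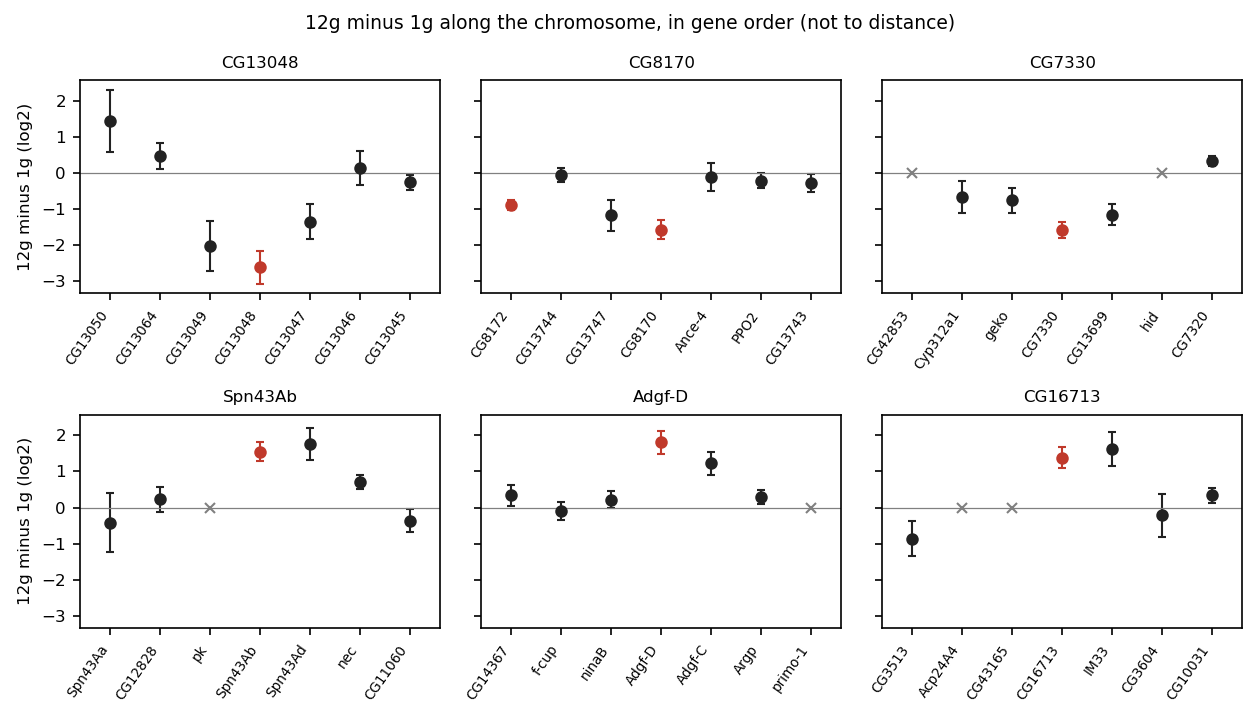
Log2 difference between 12g and 1g, with its standard error from limma, for 6 called genes (red) and up to 3 genes on each side in chromosome order, with crosses for genes not measured by a probe set of their own. CG13049 and CG13047 flank CG13048 at -2.02 and -1.34, and Spn43Ad, Adgf-C and IM33 stand at 1.76, 1.23 and 1.63 next to their called neighbours.

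Gene families gave a wider view than single calls. For each gene the brightest probe set was used, which gave 11982 genes with a median difference of 0.01, of which 0.125% were called higher and 0.0751% lower. The cytochrome P450 genes, heme enzymes that oxidise hormones, fatty acids and foreign compounds, lay higher as a family. Of 81 measured, 69 had a positive difference, 31 lay above every 1g array (38.3%, against 13.9% of all genes) and 2 below (2.47%, against 8.88%), while Cyp6g1 was the only one called. The family median was 0.33, remained at 0.34 with the experiment term and was 0.23 within the first experiment. By CYP number, 13 of 23 genes of family 6, 3 of 5 of family 9, 3 of 4 of family 28 and 7 of 22 of family 4 lay above every 1g array, but 0 of 6 of family 313. Family 12 had 1 of 6 above, and the remaining P450 genes 4 of 15.

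Cyp9b1 read 7.49 and 8.29 at 12g against 7.29, 5.73 and 6.17 at 1g (difference 1.49, adjusted p = 0.072 in limma). Cyp28d1 read 9.06 and 10.31 against 9.15, 7.83 and 8.37 (difference 1.24, adjusted p = 0.082 in limma), and Cyp28a5 stood at 0.95. In Cyp28d1 the groups overlapped, because the first-experiment 1g array was as high as 12g replicate 1. The conjugating enzymes lay on the same side. UDP-glycosyltransferases, which attach sugars to small lipophilic molecules, had a median of 0.25 over 35 genes, with 15 above every 1g array (42.9%) and 0 below. Of all genes 13.9% lay above and 8.88% below, for this list and the next. Ugt302C1 read 9.88 and 10.05 against 9.53, 9.24 and 9.21 (difference 0.64, adjusted p = 0.067 in limma), and Ugt37D1 stood at 1.15 and Ugt49C1 at 1.47. Glutathione S-transferases had a median of 0.28 over 34 genes with 11 above and 0 below, led by GstE10 (0.86), GstO2 (0.50) and GstE9 (0.86), and this median was 0.11 with the experiment term. None of the conjugating enzymes was called.

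**Figure D3:**
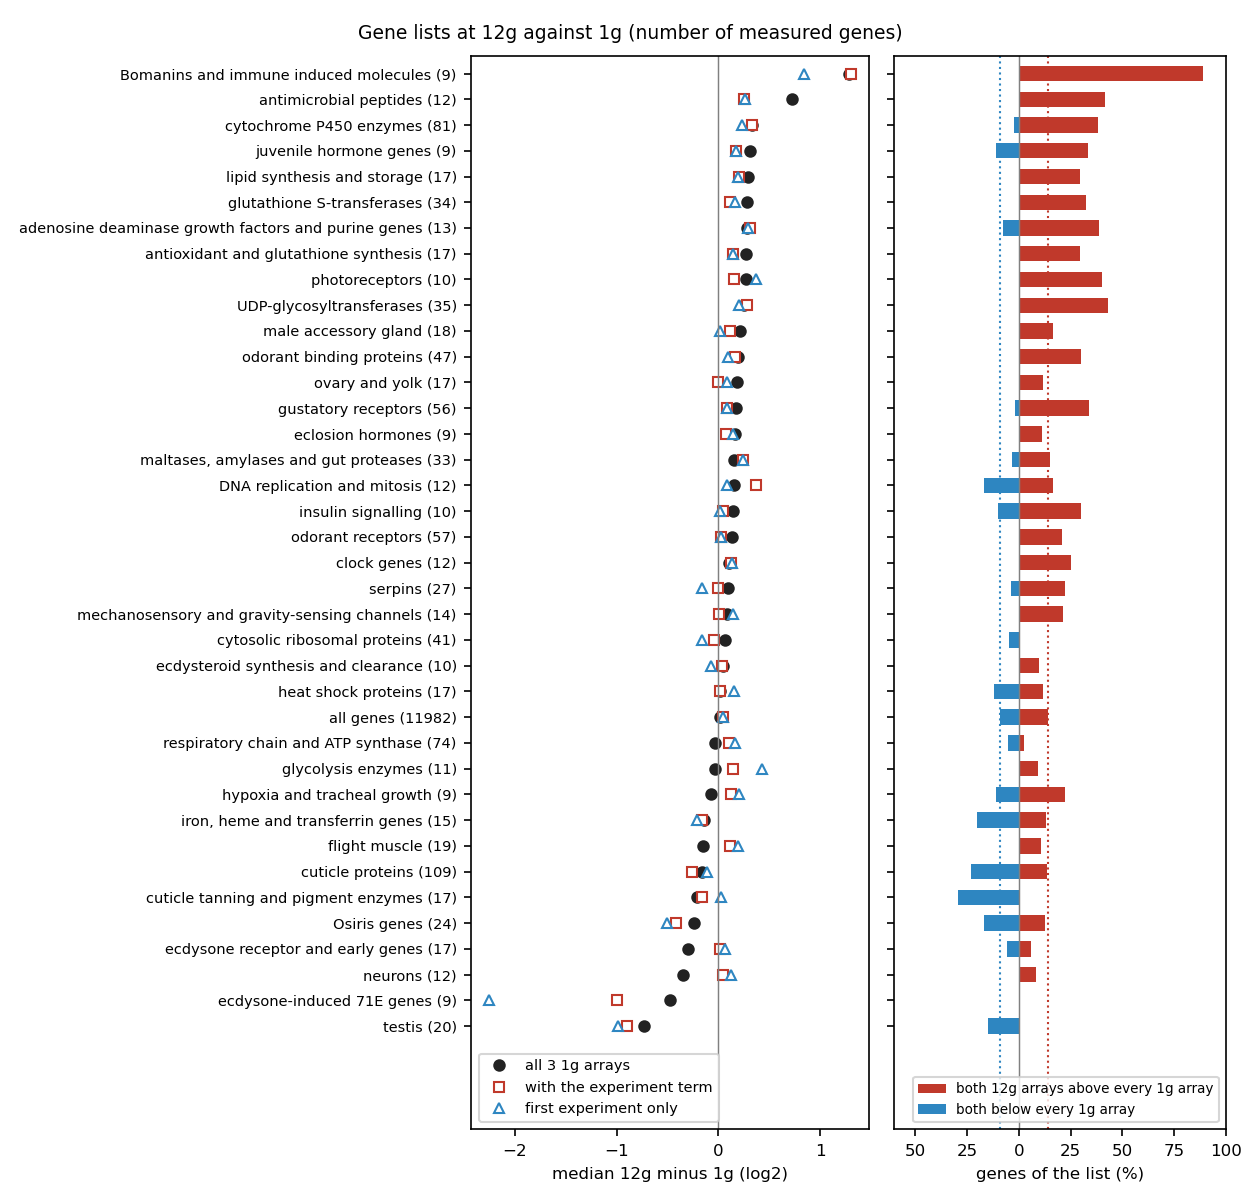
Left, median log2 difference between 12g and 1g of each gene list with at least 9 measured genes, from all 3 1g arrays (filled), with the experiment term (squares) and within the first experiment, which has 1 control array (triangles). Right, the share of each list's genes in which both 12g arrays lie above or below every 1g array, with dotted lines at 13.9% and 8.88% for all genes; the P450 list stands at 38.3% and 2.47%.

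Immune effector genes were examined as separate lists. The Bomanins are short secreted peptides induced through Toll, and with the immune induced gene IM33 they gave 9 measured genes. Of these, 9 had a positive difference and 8 lay above every 1g array (88.9%, against 13.9% of all genes). Their median was 1.29, with 1.3 under the experiment term and 0.84 within the first experiment, and 0 were called. BomS4 read 6.69 and 7.72 at 12g against 6.36, 5.90 and 5.49 at 1g (difference 1.29, adjusted p = 0.292 in limma), and BomS2 read 9.19 and 9.19 against 6.78, 7.99 and 7.83. The groups were apart in both, but 1g-rot replicate 1 was nearly as high as 12g in BomS2, at 9.09. In BomS4 that array lay between the 12g arrays, at 7.15. Averaged over the 9 genes, the list read 7.82 and 8.46 at 12g, 7.13, 6.92 and 6.84 at 1g, 8.27, 7.34 and 6.70 in the rotational control and 6.83 and 6.84 at 6g.

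The antimicrobial peptides, which kill bacteria and fungi directly, had a median of 0.72 over 12 genes, with 5 above every 1g array (41.7%, against 13.9% of all genes) and 0 called, but the median was 0.25 with the experiment term. AttD, an attacin, read 8.09 and 6.61 at 12g against 5.64, 4.96 and 5.27 at 1g (difference 2.06, adjusted p = 0.29 in limma). Drsl6, of the drosomycin family, stood out in a single control, 1g replicate 1, at 11.39 against 6.47 and 5.02 in the other 1g arrays. Serpins had a median of 0.10 over 27 genes (-0.16 within the first experiment) and, apart from Spn43Ab and Spn43Ad, lay on both sides. The peptidoglycan recognition proteins, the sensors of bacterial walls, had a median of 0.25 over 7 genes with 1 above every 1g array (14.3%), a share close to the 13.9% of all genes.

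No cuticle protein or ecdysone-induced 71E gene was called. Of 109 cuticle proteins 25 lay below every 1g array (22.9%, against 8.88% of all genes), with a median of -0.16. Above every 1g array lay 15 (13.8%), a share close to the 13.9% of all genes. The sign of the median rested on single arrays, since it was 0.10 without 12g replicate 2 and 0.01 without 1g replicate 1. Lcp65Ac read 7.82 and 7.78 at 12g against 9.11, 9.93 and 9.15 at 1g (difference -1.60, adjusted p = 0.071 in limma), whereas Cpr65Au stood at 1.60. The ecdysone-induced 71E genes, known from the prepupal salivary gland, had a median of -0.48 over 9 genes and -2.25 within the first experiment. Eig71Ef, for example, read 7.54 in 1g replicate 1 and 4.21 and 4.75 in the other 1g arrays, against 4.83 and 4.58 at 12g, and the median became 0.33 without that array.

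The mechanosensory, chemosensory and heat shock lists held no called gene. The 14 mechanosensory and gravity-sensing genes had a median of 0.08 (-0.02 after a further quantile normalization) and 0 calls. Of them 3 lay above every 1g array (21.4%, against 13.9% of all genes). Nanchung (nan), a TRPV channel of the antennal hearing and gravity organ, read 5.94 and 6.30 at 12g against 5.75, 5.24 and 5.57 at 1g (difference 0.60, adjusted p = 0.11 in limma), and stum, stumble, a gene of mechanosensation in proprioceptive neurons, stood at 0.52. Heat shock proteins had a median of 0.01 over 17 genes, with 2 above and 2 below every 1g array (13.9% and 8.88% of all genes). Odorant binding proteins, carriers of odours and other small ligands, had a median of 0.20 over 47 genes. Of them 14 lay above every 1g array (29.8%, against 13.9% of all genes) and 0 below (8.88% of all genes). Obp19d read 10.15 and 10.74 at 12g against 9.67, 7.29 and 8.44 at 1g, and Obp8a read 6.30 and 6.13 against 5.59, 5.17 and 5.58 (adjusted p = 0.053 each in limma). Gustatory and odorant receptors, most of them dim on whole-pupa arrays, had medians of 0.18 and 0.14. The spread of log2 values over an array was 2.00 and 2.08 at 12g and 2.03, 2.16 and 2.08 at 1g, and its part in the receptor values was not tested.

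Among the tissue markers, those of the testis stood lowest. All 20 testis markers had a negative difference, 3 lay below every 1g array, where 8.88% of all genes did, and 0 were called. Their median was -0.73, -0.90 with the experiment term and -0.99 within the first experiment. ProtA, a protamine-like protein that packs sperm DNA, read 8.20 and 6.88 at 12g against 8.79, 9.91 and 8.33 at 1g (difference -1.47, adjusted p = 0.184 in limma), and betaTub85D, the testis tubulin, read 10.81 and 9.52 against 11.36, 12.08 and 10.64. The low level belonged mainly to 12g replicate 2. Averaged over the list, the arrays read 8.79 and 7.80 at 12g, 9.13, 9.43 and 8.39 at 1g, 9.53, 9.56 and 9.33 in the rotational control and 9.55 and 8.93 at 6g. Without 12g replicate 2 the median was -0.20, and without 12g replicate 1 it was -1.26. The number of male and female pupae in a pool is not given in the sources used here, and its part in these values was not tested.

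Accessory gland markers, seminal fluid genes of the adult male, were low in all but 1 of these arrays. Their mean was 5.69 and 5.07 at 12g and 4.86 to 5.44 at 1g, but 7.22 in 1g-rot replicate 1. Neuron markers had a median of -0.35 that became 0.04 with the experiment term, flight muscle markers one of -0.15 that became 0.12, and photoreceptor markers, which include Galphaq, one of 0.27 with 1 called. The flight muscle list had means between 12.83 and 13.50 over the constant temperature arrays.

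**Figure D4:**
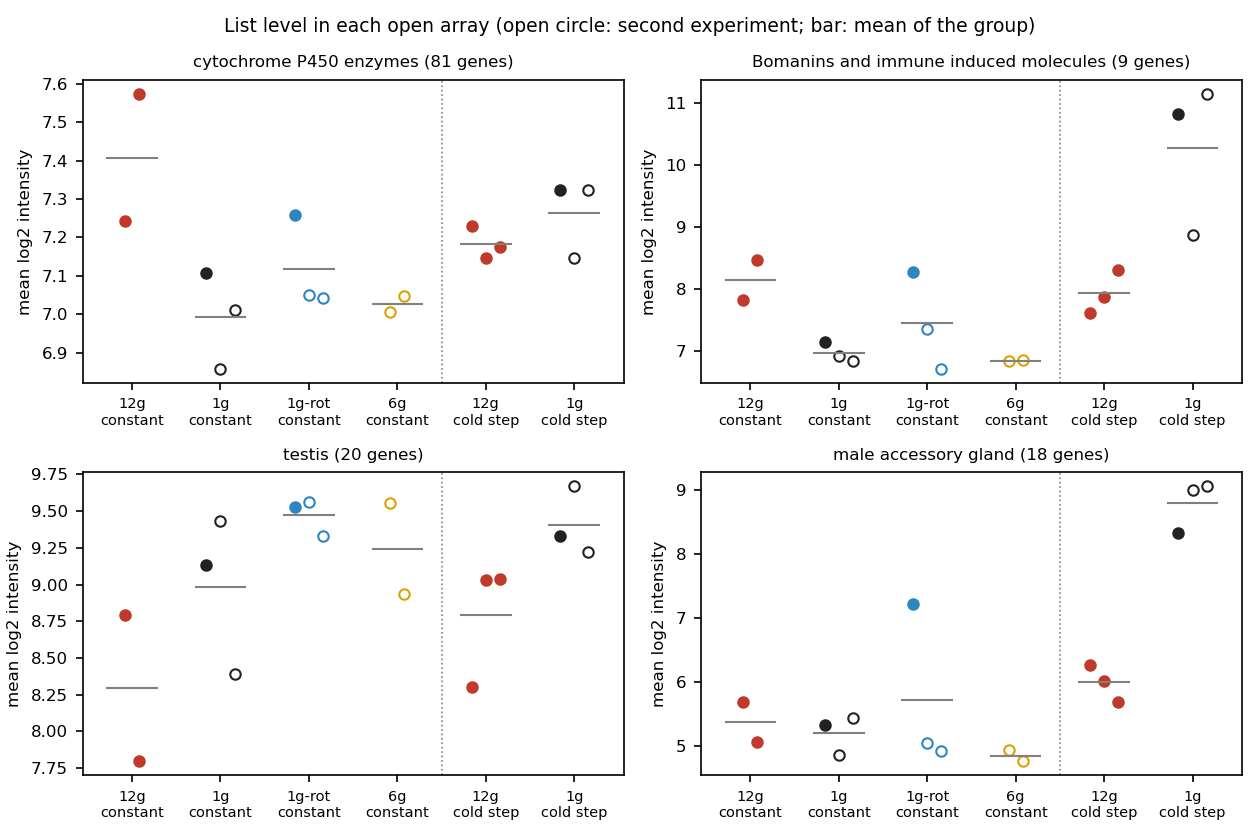
Mean log2 intensity of 4 gene lists in each open array, at constant temperature (left of the dotted line) and after the cold step (right), with filled points for the first experiment, open points for the second and a bar for the group mean. The testis list is lowest in 12g replicate 2, at 7.80, and the Bomanin list of static pupae lies between 6.84 and 7.13 at constant temperature and between 8.86 and 11.1 after the cold step.

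Against the rotational control many more probe sets passed. At 12g 1443 were called (7.69%), 576 higher (3.07%) and 867 lower (4.62%). The largest falls were Mst27D (-2.71), a male-specific transcript, Nrg (-2.63), the adhesion protein neuroglian, CG2955 (-2.56), djl (-2.48), a relative of the sperm protein gene don juan, and BI-1 (-2.43), Bax inhibitor-1 (adjusted p = 0.0444 for Nrg and 0.028 for the others in limma). Mst27D read 6.79 and 5.59 at 12g against 8.11, 9.41 and 9.17 in the rotational control, lowest in 12g replicate 2. Of the 20 testis markers 7 were called lower against 6.55% of all genes, with a median of -1.28. Nrg read 8.36 and 8.38 at 12g, 9.03 in 1g-rot replicate 1 and 11.97 and 11.99 in the others, and 1g replicate 1 read 8.56, so its level followed the experiment. The largest rises were CG34227 (2.30), Mp (1.75), a collagen of the multiplexin type, CG17930 (1.52), spri (1.46) and 18SrRNA-Psi:CR41602 (1.40), the last a ribosomal RNA pseudogene.

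These calls depended on the arrays in the comparison. With the experiment term 0 were called (3322 at an unadjusted p under 0.05), as without 1g-rot replicate 2 (3332) or 1g-rot replicate 3 (3658). Without 12g replicate 2, 35 remained in number, 34 of them higher, and without 1g-rot replicate 1 the count was 4652. All probe sets were shifted by a median of 0.11 in this comparison. With each array centred on its median the calls were 1231 higher and 870 lower, and with a further quantile normalization 295 higher and 362 lower.

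A separate set of open pupae received a cold step before the same gravity treatment, with 3 arrays at 12g, all of the first experiment, and 3 at 1g, of which 1 is of the first and 2 are of the second. There 2036 probe sets were called at 12g against 1g (10.8%), 1190 higher (6.34%) and 846 lower (4.51%), which became 821 and 601 with the experiment term. Of the 19 risers 11 had a positive difference again (55.4% of all probe sets did), and of the 9 fallers 2 had a negative one (44.5% of all). IKKepsilon and CG9948 were called higher again, at 0.70 and 0.39 (adjusted p = 0.00465 and 0.0285 in limma), and CG15650 was called at 0.71, opposite to its fall at constant temperature (adjusted p = 0.037 in limma). The median after the cold step was 0.07 for the 19 risers and 0.39 for the 9 fallers. The difference between the 12g responses of both environments was tested directly as an interaction, which called 629 probe sets (3.35%), 220 positive (1.17%) and 409 negative (2.18%), among them 16 of the 28. The same constant temperature arrays chose the 28 and enter the interaction, so that share is a description.

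**Figure D5:**
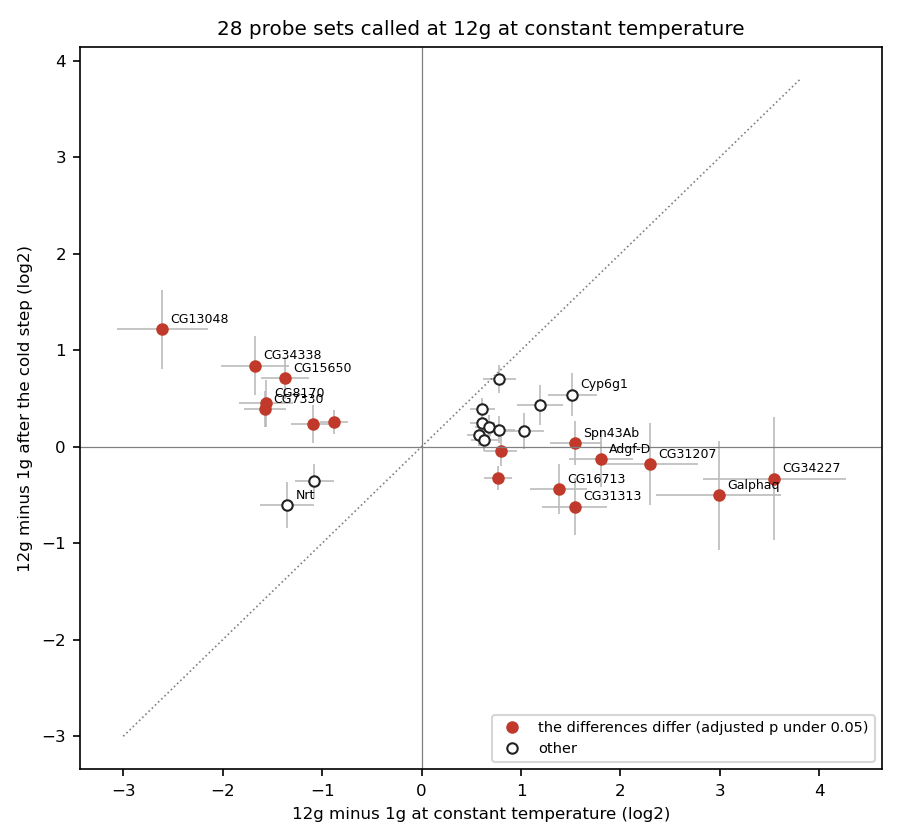
Log2 difference between 12g and 1g for the 28 called probe sets at constant temperature (horizontal, 2 arrays against 3) and after the cold step (vertical, 3 against 3), with standard errors from limma and a dotted line of equal differences. CG13048 stands at -2.61 and 1.22, while IKKepsilon stands at 0.78 and 0.70.

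Static pupae of the cold step read unlike static pupae at constant temperature in several of these genes, a difference that was not tested. CG13048 read 6.23, 6.70 and 6.08 at 1g after the cold step, below its 12g values of 7.08 and 7.14 at constant temperature, and 6.38, 8.39 and 7.89 at 12g after the cold step. Adgf-D read 9.16, 8.89 and 8.89 at 1g after the cold step and 9.02, 8.83 and 8.71 at 12g, all within its 12g range at constant temperature. grass read 9.75, 9.40 and 9.69 at 1g and 9.43, 9.14 and 9.30 at 12g. In these genes the 1g values of both environments did not overlap, while the 12g values lay closer together. IKKepsilon kept its low 1g level, at 5.84, 5.20 and 5.52, and its higher 12g level, at 6.26, 6.46 and 5.95.

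The Bomanin list stood on opposite sides in both environments. After the cold step 8 of its 9 genes were called lower at 12g (5.93% of all genes were), with a median of -2.40, whereas at constant temperature the median was 1.29. The interaction was called in 6 of the 9, all lower, where 2.18% of all probe sets were. BomS2 had a difference of 1.66 at constant temperature and -3.19 after the cold step (adjusted p = 0.392 and 0.019 in limma, and 0.031 for the interaction). The list mean was 10.8, 8.86 and 11.1 at 1g after the cold step and 7.61, 7.86 and 8.31 at 12g, near the 12g values of 7.82 and 8.46 without the step.

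The widest interactions lay in genes that were not called at constant temperature. Osi15 (5.41), Osi20 (4.62) and CG13721 (4.48) were on the positive side, and CG34217 (-7.38), EbpII (-6.56) and Ebp (-6.37) on the negative side. Osi15, of the Osiris family expressed in cuticle-forming epithelia, read 10.33 and 8.92 at 12g and 11.62, 13.56 and 12.43 at 1g at constant temperature. It was lower in every array at 1g after the cold step, at 5.53, 8.48 and 5.57, and read 6.38, 9.66 and 11.04 at 12g there. Ebp, an ejaculatory bulb protein, lay between 4.09 and 4.63 in all 10 constant temperature arrays, and between 10.08 and 11.49 at 1g after the cold step. At constant temperature CG34217 read 5.21 and 10.81 in the 12g replicates and between 4.88 and 5.29 in the other arrays. There 12g replicate 2 alone carried its difference. After the cold step CG34217 read 11.83, 10.32 and 12.14 at 1g and 9.24, 6.05 and 5.11 at 12g (difference -4.63), which also enters its interaction. With quantile normalization the interaction calls were 381 higher and 300 lower, against 220 and 409, and without 12g replicate 2 the total was 30.

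At 6g, with 2 arrays against the same 3 at 1g, limma called 0 probe sets (1409 at an unadjusted p under 0.05; 816 with the experiment term). Several of the genes called at 12g lay near the static level there. CG7330 read 9.38 and 9.50, CG13048 9.57 and 10.00, and grass 8.65 and 8.81. Adgf-D read 7.03 and 7.43 and Cyp6g1 8.91 and 8.45, within or near the 1g range. CG34115 read 7.32 and 7.50, below all its 1g arrays, and CG34227 read 6.46 and 7.04 against a 1g group split by experiment. The 6g arrays are of the second experiment and the 12g arrays of the first, so gravity level and experiment cannot be told apart between these groups.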

How the data were processed

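RNA of Oregon R pupae was hybridised by the authors to Affymetrix Drosophila Genome 2 arrays. The deposited values are log2 intensities made by the authors with RMA, per the labels, which corrects background, quantile-normalises and summarises probes into probe sets; the version is not given in the sources used here. Values carry 2 decimals. Of 18952 probe sets 183 controls were left out. Gene symbols came from the platform annotation, updated through the RefSeq gene table (13647 probe sets with 1 symbol, 402 with several, 4720 with none; 13544 matched by gene ID). Probe sets ending in s_at can match several transcripts.

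All 40 LDC arrays (16 groups) were fitted together with limma 3.58.1 in R 4.3.3 (lmFit, eBayes, two-sided), so that 24 residual degrees of freedom estimate the spread, and p was adjusted by Benjamini-Hochberg over 18769 probe sets; a probe set is called at an adjusted p under 0.05. The script was tested on simulated data. Lists (32 families and pathways, 10 tissue lists) use the brightest probe set of each gene. Tables and figures were made with Python 3.11.15. Named genes are all called probe sets with 1 symbol, up to 4 members of smallest p of each list described, and the largest changes against the rotational control and in the interaction. Members, lists and rules were chosen with earlier results of these data known. Alternatives were a term for the second experiment (the study's mark), first experiment only, only the groups compared, a replicate block, a further quantile normalization, centring arrays on their median, dropping dim probe sets, trend and robust eBayes, gene means, an unadjusted p under 0.001 and leaving out each array. The number of arrays limits the precision. No coordinates or sequences are given, as the files name no genome build.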

Additional observations from a re-analysis of the deposited data

Results flagged for a closer look

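In 16 of the 28 probe sets called at 12g against 1g, the 12g difference after the cold step and that at constant temperature differed by limma's interaction contrast (adjusted p under 0.05). Of all probe sets 3.35% were called in that contrast, 1.17% positive and 2.18% negative. The count over all probe sets fell from 629 to 30 without 12g replicate 2 and to 18 with only the groups compared. Values are the cold step difference minus the constant temperature difference on the log2 scale. Among genes that fell at constant temperature the interaction was positive, at 3.82 for CG13048, 2.52 for CG34338, 2.08 for CG15650, 2.02 for CG8170, 1.97 for CG7330, 1.33 for CG12964 and 1.14 for CG8172. Among genes that rose it was negative, at -3.88 for CG34227, -3.49 for Galphaq, -2.48 for CG31207, -2.16 for CG31313, -1.93 for Adgf-D, -1.82 for CG16713, -1.51 for Spn43Ab, -1.09 for grass and -0.84 for the probe set of CG42502 and CG10570. The arrays that chose these genes also enter the interaction, and 12g replicate 2 and the 1g experiments move with the values as given above. Their part in the result was not tested.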

How the results depend on the processing

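All 28 called probe sets kept their direction under every alternative that gave a value. Leaving out single arrays or the second experiment could not change it, as both 12g arrays lay outside the 1g range in all 28. Several other alternatives reuse the same group means. The count of 28 became 6 with the term for the second experiment (3 of them among the 28), 89 with the first experiment only (3 among the 28, with a lone 1g array assumed to vary like the other groups), 0 with only the groups compared, 18 with the replicate block, 47 without the dimmest probe sets, 184 at an unadjusted p under 0.001 and 45 with gene means; it ran from 0 to 682 when single arrays were left out. The count of 1443 against the rotational control became 0 with the term, 6 within the first experiment, 0 with only the groups compared (2874 at an unadjusted p under 0.05), 657 with quantile normalization again and 561 at an unadjusted p under 0.001, and ran from 0 to 4652 without single arrays. The interaction count of 629 became 1006 with the term, 275 within the first experiment and 18 with only the groups compared, and ran from 30 to 993. The replicate block moved the other counts by less than 1.5 times. Same-numbered 12g and 1g arrays deviated together at 0.24 and -0.11 (Pearson r over probe sets), and replicate 1 of both is of the first experiment while replicate 2 is not at 1g, so the numbers were not taken as pairs. Of 42 list medians 21 kept their sign throughout, among them P450 genes (0.23 to 0.42), UDP-glycosyltransferases (0.17 to 0.34), Bomanins (0.68 to 1.66) and testis (-1.26 to -0.20). Precision is limited by 2 arrays at 12g, both of 1 experiment.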
